A study of Mus musculus with 3 samples.

Results

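The cytosolic ribosomal protein genes were examined on 3 arrays that compared mast cell progenitors (MCps) of WT and p85α-/- mice. These genes encode the proteins that, with ribosomal RNA, build the large and the small subunit of the cytosolic ribosome. Members were chosen by name only: a probe's gene name begins with Rpl or Rps and a digit, or is Rplp0, Rplp1 or Rplp2, and is not one of the S6 kinases (Rps6k). This rule took 81 genes of the 27962 gene names on the array, with 135 probes in all. Of these, 45 are large subunit genes, 30 are small subunit genes, and 6 carry a similar name but are no canonical subunit (Rpl3l, Rpl7l1, Rpl22l1, Rpl36al, Rps27l and Rps19bp1). A list of 76 canonical genes was matched on 75, and Rpl34 was not analysed here. For each gene the brightest probe was used, by the mean of both dyes over the 3 arrays.

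Each array carried cDNA of 1 WT culture labelled with Cy3 and 1 p85α-/- culture labelled with Cy5, so that n = 3 cultures per genotype. p85α is a regulatory subunit of class IA PI3K, the lipid kinase that the receptor KIT recruits. Low-density mononuclear marrow cells of 3 mice per genotype were grown in IL-3 (10 ng/mL) for 7 days, cells with both KIT and the IgE receptor were sorted, and these were given SCF, the KIT ligand, at 100 ng/mL for 48 hours. The labels give no age or sex. The dyes were never swapped, so dye and genotype cannot be told apart for any ratio below. The sort gave few cells, and their cDNA was therefore amplified by PCR ahead of labelling.

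Ribosomal proteins are made in near equal numbers, and growing cells spend much of their translation on them. Many of their mRNAs begin with a C and a run of pyrimidines, the 5′ terminal oligopyrimidine (TOP) tract, through which mTOR, a kinase downstream of PI3K, controls their translation. S6 kinase, another kinase of that pathway, phosphorylates Rps6. An array measures mRNA level and not translation or phosphorylation.

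RefSeq start sites (GRCm38.p6) were found for 54 of the 75 canonical genes. A TOP tract was counted where the first annotated base was C and at least the next 4 were C or T, read on the gene's own strand. It was found in 13 of these 54 genes (24.1%), against 3.01% of all 27025 genes in the table and 0 of 66 mitochondrial ribosomal protein genes. The windows below show the start of members with and without this tract, which was more frequent in them than in the table as a whole. Each runs from 10 bases before the annotated start to 20 bases into the transcript, 5′ to 3′, with the unbroken run of C and T from the first base in capitals. The first 6 are members with a tract, Rpl27a has a long run that begins with T and so was not counted, and Rpl26, the member with the highest ratio, has no such run.
Rps6 (chr4:86857348-86857377, minus strand): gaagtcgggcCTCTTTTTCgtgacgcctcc
Rps10 (chr17:27635225-27635254, minus strand): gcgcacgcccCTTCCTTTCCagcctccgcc
Rps15a (chr7:118116128-118116157, minus strand): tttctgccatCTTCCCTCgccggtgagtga
Rps27 (chr3:90213629-90213658, minus strand): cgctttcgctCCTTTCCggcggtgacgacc
Rpl38 (chr11:114668570-114668599, plus strand): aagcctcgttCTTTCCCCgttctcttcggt
Rplp2 (chr7:141447641-141447670, plus strand): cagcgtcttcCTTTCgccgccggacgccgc
Rpl27a (chr7:109519185-109519214, plus strand): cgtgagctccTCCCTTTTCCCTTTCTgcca
Rpl26 (chr11:68901556-68901585, plus strand): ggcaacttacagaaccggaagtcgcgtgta
A start annotated a few bases away from the one these cells use would hide a tract, so a gene without one here may still have it.

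The arrays were read with the following limits. The median WT signal was 71.5 to 141 and the median p85α-/- signal 207 to 517 in scanner units, 69.4% to 93.8% of spots were well above background, and no spot was saturated (0 in every channel). Array 2 had both the dimmest WT and the brightest p85α-/- channel. Pik3r1, which encodes p85α, had 4 probes with mean log2 ratios of −0.58 to 0.59, and its brightest probe read 1.48, −0.03 and 0.33 on arrays 1 to 3. Whether these probes lie in the disrupted part of the gene is not given in the sources used here, so they do not check the genotype. Mast cell markers were present (9 of 10 well above background in every WT channel, and all 10 in every p85α-/- channel), and their summed linear level was 65752, 28183 and 41747 in WT and 155107, 118063 and 88909 in p85α-/-. Without Cma1, a mast cell chymase, these sums were 56370, 23447 and 17106 in WT and 52330, 71006 and 57653 in p85α-/-, so the difference on array 1 rested on that gene. The median log2 ratio of the 10 markers was 0.98, 1.81 and 0.87 on arrays 1 to 3. The summed linear level of 9 neutrophil markers was 10250, 19225 and 9054 in WT, and 70297, 3256 and 228232 in p85α-/-, so the sum was higher in the p85α-/- culture on arrays 1 and 3 and lower on array 2. Mpo had log2 ratios of 2.90, −3.37 and 5.39, the widest range among these markers. Without it the sums were 4145, 2256 and 4352 in WT and 24703, 1618 and 30602 in p85α-/-. By marker the medians were 1.76, 0.01 and 2.60, with 8, 5 and 5 of 9 above 0. Lcn2, a defining neutrophil gene, was not well above background in any WT channel. The 7 macrophage markers summed to 3027 to 7025 in WT and 3107 to 3981 in p85α-/-.

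All 81 members were well above background in both channels of all 3 arrays, so none had to be dropped as dim. Most were higher in the p85α-/- channel. Of 81 genes, 66 (81.5%) had a log2 ratio, p85α-/- over WT and averaged over the arrays, above 0, where 44.8% of all 41157 tested probes were above 0. The median of the 81 means was 1.28, against −0.05 over all probes. The canonical genes alone had 65 of 75 above 0 and a median of 1.33. When each array was only centred on its median instead of quantile normalized, 79 of 81 were above 0 (97.5%, against 54.7% of all probes), with a median of 2.35. Centring leaves any trend of ratio with intensity in place, and other bright probes were not read under it. The median was 0.81 without array 1, and the count above 0 was lowest without array 2, at 58. The mast cell markers had median ratios above 0 on each array as well, and their part in this shift was not tested. In bulk samples, fewer cells of a type and less RNA per cell cannot be told apart, and all values are relative to the other genes on the array.

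The shift was present on every array but differed in size. The median log2 ratio of the 81 genes was 1.91 on array 1, 0.98 on array 2 and 1.15 on array 3, and 58, 58 and 61 of them were above 0. The median of all probes was −0.01 on each array. The median log2 intensity of the 75 canonical genes was 12.14, 12.67 and 12.72 in the WT cultures and 13.28, 14.21 and 13.66 in the p85α-/- cultures. The 3 p85α-/- medians therefore all lay above the 3 WT medians. An exact sign-flip permutation test of 1 value over 3 arrays, two-sided, cannot go below p = 0.25, so none was made.

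**Figure D1:**
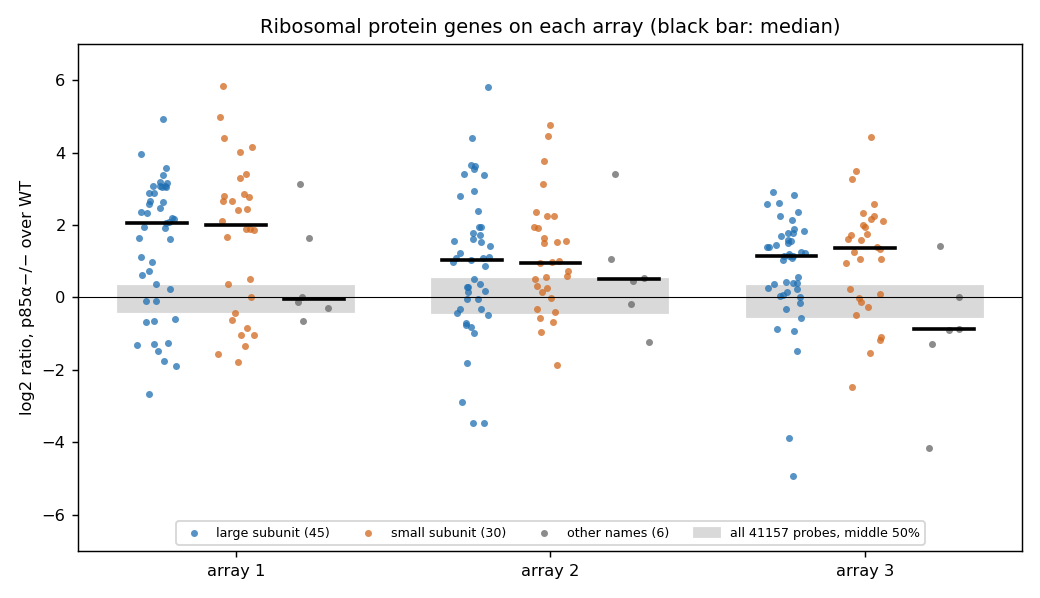
Log2 ratio of p85α-/- over WT (vertical axis) of each of the 81 genes on each array, with large subunit genes in blue, small subunit genes in orange and the 6 other names in grey. Black bars are medians and the grey boxes hold the middle 50% of all 41157 probes. The large and small subunit medians lie near each other on every array and above the grey box.

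The medians of the large and the small subunit lay near each other on each array. The median log2 ratio of the 45 large subunit genes was 2.05, 1.02 and 1.15 on arrays 1 to 3, and that of the 30 small subunit genes was 2.01, 0.96 and 1.36. The difference, large minus small, was 0.04, 0.06 and −0.22, with a mean of −0.04 ± 0.15 (SD, n = 3). The sign of this difference was not the same on all arrays, and its mean was smaller than its spread. Between the medians of the mean ratios it was −0.12, under loess normalization −0.31, and with 1 array left out −0.43 (without array 2) to −0.074. Over the mean ratios, 40 of 45 large and 25 of 30 small subunit genes were above 0. The 6 other names had a lower median of their means, −0.16, with only Rps27l above 0. Array by array their medians were −0.05, 0.50 and −0.88, with 3, 4 and 2 of the 6 above 0. Rps27l had a mean ratio of 1.67 ± 1.36, and Rpl36al ranged most, with −0.11, 3.40 and −4.16.

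No member passed an adjusted p under 0.05 in limma's test with Benjamini-Hochberg adjustment over all probes, and neither did any other probe (0% of 41157). The lowest adjusted p of a member was 0.763. At the thresholds that the study's methods name, a fold change of 1.5 and an unadjusted p under 0.05, 16 of 81 members were higher in p85α-/- and 0 were lower. Over all probes 2.78% passed as higher and 1.66% as lower, or 4.44% in either direction. The unadjusted p alone was under 0.05 for the same 16 members (4.44% of all probes). The 16 were 10 large and 6 small subunit genes. For 23 members every p85α-/- culture lay above every WT culture (4.54% of all probes), and for 1, Rpl21, every one lay below (5.94% of all probes). The ratio was above 0 on all 3 arrays for 32 members (12.5% of all probes) and below 0 on all 3 for Rpl21 alone (13.3% of all probes). Without array 2 the count past both thresholds was 34, of which 30 were higher and 4 lower, and 7.69% of all probes passed in either direction (3.65% as higher). The test by 6 separate channels gave 24 members and 4.4% of all probes. The methods' t-test gave 17 members unpaired (2.73% of all probes) and 6 paired by array (1.99%), all higher.

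**Figure D2:**
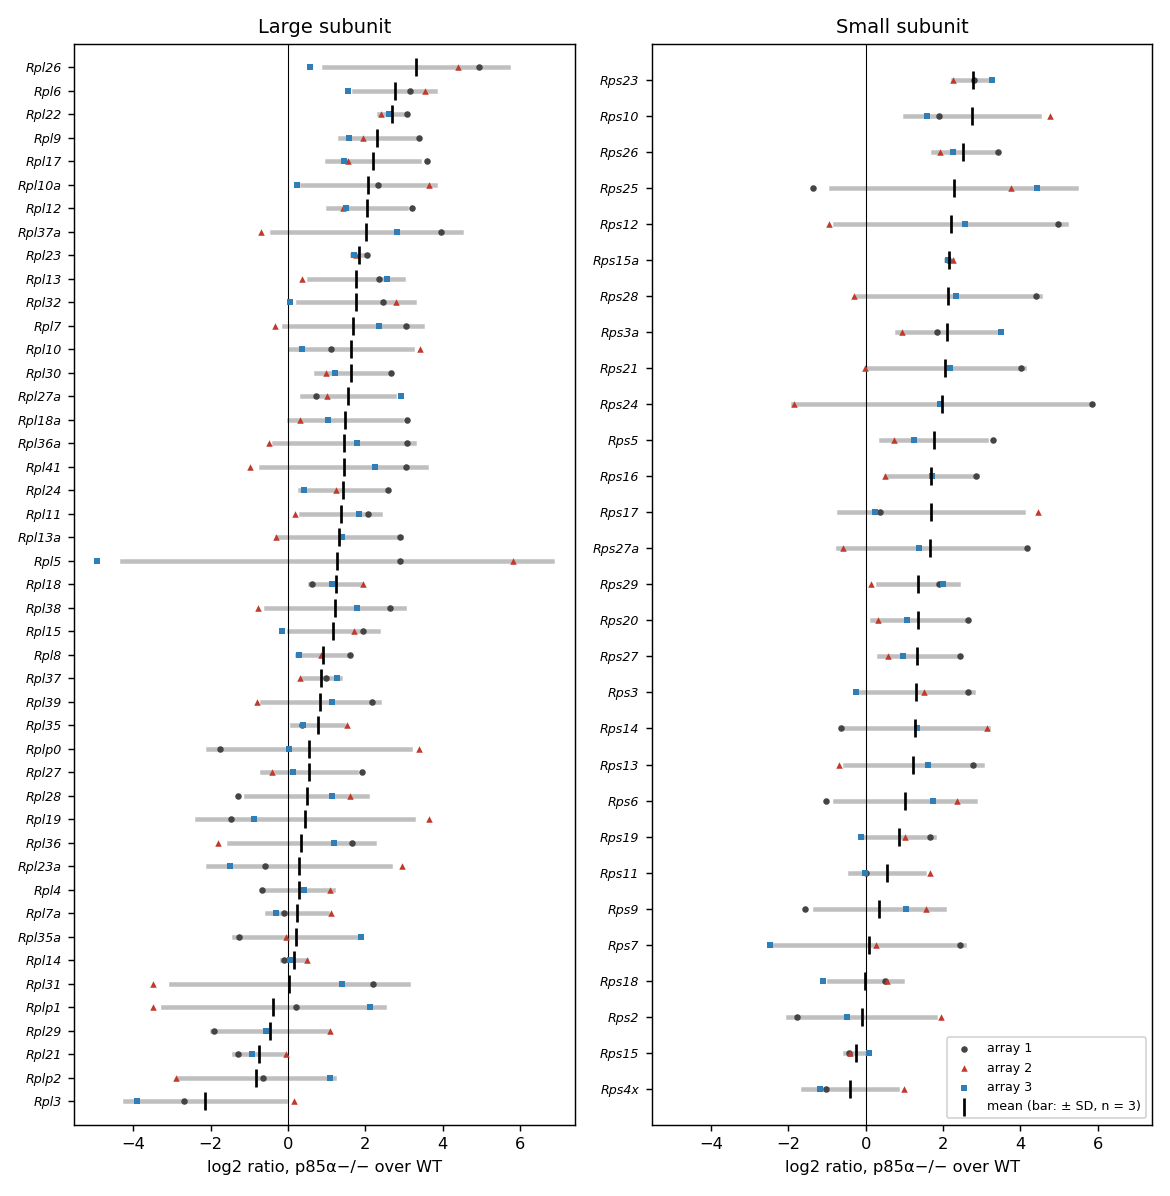
Log2 ratio of p85α-/- over WT (horizontal axis) for the large and small subunit genes reported by name (vertical axis), sorted by mean. Symbols are the 3 arrays, the black tick is the mean and the grey bar is ± 1 SD (n = 3). Red triangles (array 2) often lie on the other side of the mean from arrays 1 and 3, and Rpl5 has the widest bar.

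Of the small subunit genes past both thresholds, Rps23 had the highest mean. Rps23, a protein of the decoding centre, had log2 intensities of 11.21, 12.61 and 11.05 in the WT cultures and 14.01, 14.87 and 14.31 in the p85α-/- cultures. The channels did not overlap, and the mean log2 ratio was 2.77 ± 0.50 (SD, n = 3), or 6.83-fold, with an adjusted p from limma of 0.763. Rps15a read 11.74, 11.90 and 10.44 in WT and 13.86, 14.15 and 12.57 in p85α-/-. Its ratio of 2.17 ± 0.08 had the smallest spread of all 81 members, although a second, dimmer probe of the gene had a mean ratio of 0.00. Rps26, which sits where mRNA leaves the ribosome, read 10.93, 12.94 and 11.21 in WT and 14.34, 14.86 and 13.47 in p85α-/-, a ratio of 2.53 ± 0.79. Rps10, near the mRNA entry, read 11.12, 9.28 and 11.36 in WT and 13.02, 14.03 and 12.95 in p85α-/-. Its ratio of 2.75 ± 1.74 was highest on array 2, at 4.75, and without array 1 its unadjusted p in limma's test was 0.051. Rps3a and Rps16 also passed, with mean ratios of 2.10 and 1.70.

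Among large subunit genes, Rpl22 had the lowest p of any member. Rpl22 is an RNA-binding protein that ribosomes can do without and that lymphocyte development needs. It read 11.65, 12.74 and 11.81 in WT and 14.74, 15.13 and 14.43 in p85α-/-, a log2 ratio of 2.70 ± 0.35 or 6.5-fold (adjusted p = 0.763 by limma's test). Its second probe, not well above background in any WT channel, had a ratio of 0.63 ± 0.51. Rpl22l1, the paralog that can take its place, had ratios of 1.63, −1.22 and −0.88, above 0 on array 1 only. Its mean of −0.16 ± 1.56 was above 0 under median centring (0.83), without array 2 (0.38) and without array 3 (0.21).

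Rpl23, which binds the p53 ligase MDM2 when free of the ribosome, was higher in every p85α-/- culture (14.07, 14.71 and 14.04) than in any WT culture (12.03, 12.94 and 12.34). The ratio was 1.84 ± 0.18, while a second probe gave −0.04 ± 0.54. Rpl6 read 9.82, 10.74 and 12.09 in WT and 12.97, 14.29 and 13.66 in p85α-/-, a ratio of 2.76 ± 1.05. Its second probe had a ratio of 1.55 ± 2.17 and was below 0 on array 1. Rpl9, at the base of the stalk, had ratios of 3.38, 1.95 and 1.57, and Rpl30 had 2.67, 0.99 and 1.22. Rpl30 no longer passed without array 1 (1.11) or without array 3 (1.83), and Rpl17 no longer passed without array 2 (2.52). Rpl17, near the exit of the peptide tunnel, had a second probe that also passed both thresholds. The brightest had ratios of 3.58, 1.56 and 1.46, and the second 2.34, 4.57 and 0.75.

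Rpl26 had the highest mean ratio of all, 3.30 ± 2.38 or 9.85-fold. Its WT cultures read 10.50, 11.52 and 14.00 and its p85α-/- cultures 15.43, 15.92 and 14.58, and the WT culture of array 3 was far above the other WT cultures. Without array 1 or without array 2 it no longer passed (unadjusted p in limma's test of 0.13 and 0.17). Rpl13 and Rpl18 passed as well, with mean ratios of 1.77 and 1.23.

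**Figure D3:**
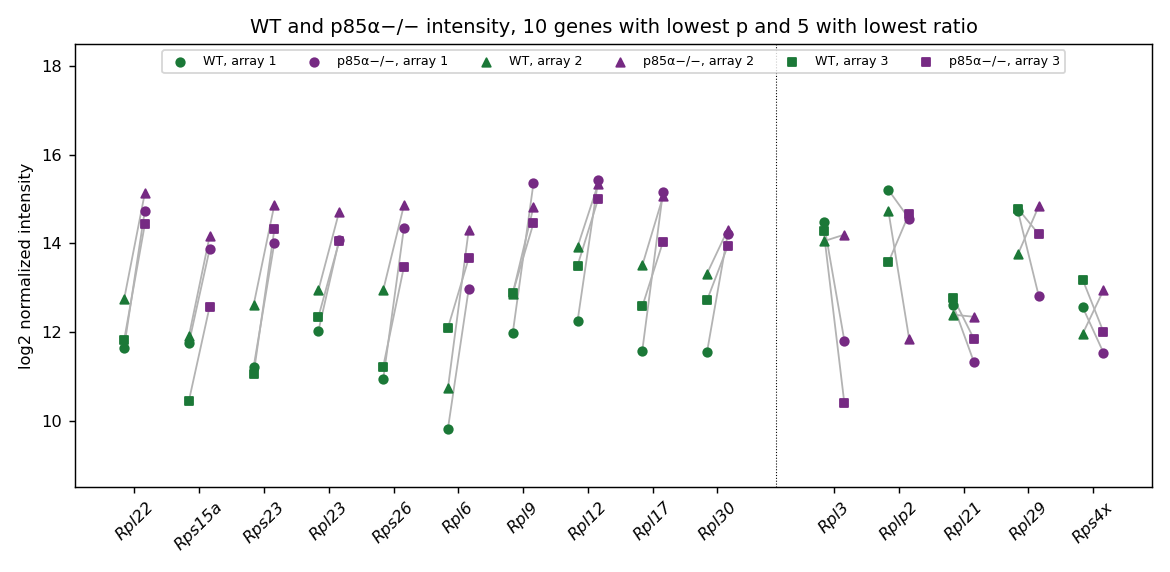
Log2 normalized intensity (vertical axis) in WT (green) and p85α-/- (purple) cultures, with lines joining the cultures of 1 array, for the 10 genes of lowest p past both thresholds (left of the dotted line) and the 5 canonical genes of lowest mean ratio (right). On the left every purple symbol of a gene lies above every green one, and on the right only Rpl21 has groups that do not overlap.

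The genes at the low end differed in pattern. Rpl3, next to the peptidyl transferase centre, read 14.48, 14.05 and 14.28 in WT and 11.80, 14.20 and 10.39 in p85α-/-, a log2 ratio of −2.14 ± 2.07 with an adjusted p from limma of 0.908. Its WT cultures were close together, and the p85α-/- cultures of arrays 1 and 3 were low while that of array 2 was at the WT level. Rpl21 read 12.61, 12.39 and 12.77 in WT and 11.32, 12.34 and 11.84 in p85α-/-, a ratio of −0.76 ± 0.64. The gap between its groups was small on array 2, and its second probe was dim with a ratio of 0.38. Rpl29 had 4 probes with ratios that were all close together, from −0.47 to −0.33, each below 0 on arrays 1 and 3 and above 0 on array 2. Under median centring the mean was above 0 for Rpl21 (0.39), Rpl29 (0.91), Rps4x (0.80) and Rplp2 (0.50). Without array 2, Rpl3 (−3.28), Rpl21 (−1.11) and Rps4x (−1.1) passed both thresholds as lower.

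Rps4x, the X-linked small subunit gene, had 2 probes that disagreed. The brightest had ratios of −1.02, 0.98 and −1.18, and the array's annotation gives it no genome position. The second probe had ratios of 1.5, 1.43 and 1.56 (1.5 ± 0.07, SD, n = 3) and passed both thresholds as higher. The direction of Rps4x therefore depends on the probe.

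The stalk of the large subunit, which recruits elongation factors, held members with unlike ratios. Rpl12, at its base, read 12.24, 13.92 and 13.50 in WT and 15.43, 15.35 and 15.01 in p85α-/-, a ratio of 2.04 ± 1.0 that passed both thresholds. Rplp1 and Rplp2, the acidic tip proteins, had ratios of 0.22, −3.48 and 2.13 and of −0.65, −2.88 and 1.1. In the p85α-/- culture of array 2 Rplp1 read 12.14 and Rplp2 11.84, against 14.56 to 15.48 in the other p85α-/- cultures, so both were low in the same culture. Rplp0, their anchor, had ratios of −1.76, 3.38 and 0.02, opposite to both on array 2, but its probe is placed by the array's annotation on another chromosome than the RefSeq gene. The 4 stalk genes had a median of 0.09. Without array 2 the means of Rplp1 and Rplp2 were 1.17 and 0.22 and that of Rplp0 was −0.87.

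Rpl5 and Rpl11 join 5S ribosomal RNA in a particle that binds MDM2 when ribosome assembly fails. Rpl5 read 10.08, 8.93 and 13.26 in WT and 12.98, 14.76 and 8.32 in p85α-/-. Its ratio of 1.26 ± 5.56 had the largest spread of all 81 members, with 5.82 on array 2 and −4.93 on array 3. Its mean was −1.02 without array 2 and 4.36, past both thresholds, without array 3. Rpl11 had ratios of 2.07, 0.18 and 1.83 on its brightest probe and −2.14, −0.59 and −2.12 on the other. The second passed both thresholds as lower, and the probes of this gene had opposite signs on all 3 arrays. Without array 2 the brightest probe passed both thresholds as higher (1.95).

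Rps6, the target of S6 kinase, read 13.38, 12.19 and 12.03 in WT and 12.35, 14.55 and 13.77 in p85α-/-. Its ratio was below 0 on array 1 and above 0 on arrays 2 and 3, with a mean of 1.02 ± 1.81 (2.05, past both thresholds, without array 1). Rps19, the gene most often mutated in Diamond-Blackfan anaemia, had ratios of 1.67, 1.01 and −0.12 on its brightest probe and means of −0.59 and −0.74 on its other probes. Rps3, at the mRNA entry, had ratios of 2.65, 1.52 and −0.26. Without array 3, both Rps19 (1.34) and Rps3 (2.08) passed both thresholds. Rps27 had 2.43, 0.59 and 0.96, and its paralog Rps27l, a p53 target, had 3.14, 0.45 and 1.42. Both were above 0 on every array and neither passed both thresholds, though Rps27l did without array 2 (2.28).

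Other probes of the canonical genes had a lower median ratio than the brightest ones. There were 51 such probes, 42 of them well above background in both channels on every array. Of the 51, 33 had a mean log2 ratio above 0 and 18 below, with a median of 0.38 and a range of −1.62 to 2.56. Of these, 4 passed both thresholds as higher and 1 as lower (2.78% and 1.66% of all probes). In 17 of the 40 members with more than 1 probe, the probes had means of opposite sign. The widest gaps were in Rpl11 (2.98), Rpl7 (2.46), Rps24 (2.44), Rps25 (2.26) and Rps15a (2.16). Rps24 had ratios of 5.85, −1.86 and 1.93 on its brightest probe, and its other probes were not well above background on every array. Rps25 had −1.35, 3.76 and 4.42 (4.09, past both thresholds, without array 1), and 0.02 on average on its other probe. The other probes of Rpl7 were well above background in every channel, with mean ratios of 1.07 and −0.77 beside 1.69. Ribosomal protein genes have many processed pseudogenes of near identical sequence, so a probe may read more than the gene it is named for. The part this plays was not tested.

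Ratios on array 2 often ran against those on arrays 1 and 3. Across the 81 genes, the log2 ratios had a Pearson correlation of 0.41 between arrays 1 and 3, −0.16 between arrays 1 and 2, and −0.25 between arrays 2 and 3. Over all 41157 probes these were 0.17, 0.01 and −0.03. Genes are not independent replicates, and the arrays share dye and slide, so these are descriptions. A set of 15 canonical genes, picked after their values were seen, had a ratio above 1 on arrays 1 and 3 and below 0 on array 2. These were Rpl7, Rpl13a, Rpl31, Rpl36, Rpl36a, Rpl37a, Rpl38, Rpl39, Rpl41, Rps12, Rps13, Rps21, Rps24, Rps27a and Rps28. Rps27a, which is made as a fusion with ubiquitin, is an example, with 4.17, −0.58 and 1.38. Rpl38 had 2.65, −0.77 and 1.78, and Rpl13a had 2.90, −0.31 and 1.41. Rpl7, Rpl13a and Rpl38 passed both thresholds without array 2 (2.70, 2.15 and 2.21). The median WT log2 intensity of the 15 was 12.14, 14.98 and 13.17, and their median p85α-/- intensity 15.81, 14.35 and 15.46. The WT culture of array 2 was the highest WT culture for all 15, and its p85α-/- culture was the lowest for 14, counts that the choice of these genes nearly fixes. Over all 75 canonical genes these counts were 41 and 26. Another 8 genes, among them Rpl3, Rpl29 and Rps4x, were below 0 on arrays 1 and 3 and above 0 on array 2, with median ratios of −1.25, 1.32 and −1.02. The sum of the neutrophil markers above, though not their median, was also lower in p85α-/- on array 2 alone, and their part in the pattern was not tested.

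**Figure D4:**
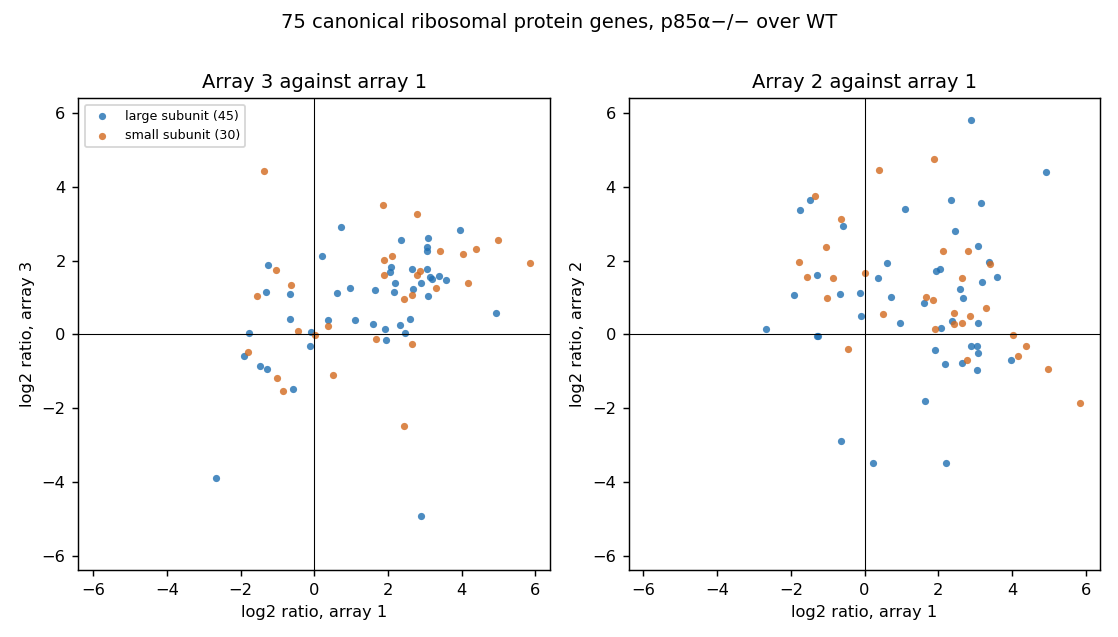
Log2 ratio of the 75 canonical genes on array 3 (left, vertical axis) and array 2 (right, vertical axis) against array 1 (horizontal axis), with large subunit genes in blue and small subunit genes in orange. Most points of the left panel lie above and to the right of 0, and in the right panel points with a high ratio on array 1 spread to both sides of 0 on array 2.

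The spread between cultures was large for these genes. The SD of the 3 log2 ratios had a median of 1.47 over the 81 genes, against 0.67 over all probes, and the mean exceeded the SD in 35 of 81 (43.2%, against 20.3% of all probes). Among the canonical genes the median SD between cultures was 0.98 in WT and 0.68 in p85α-/-, against 0.38 and 0.39 over all probes. The WT cultures were the more spread in 48 of 75 genes.

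Ribosomal protein mRNAs are abundant, and the members were compared with other bright probes for this reason. Among the 458 other probes at or above the members' median intensity, the median log2 ratio was −0.39, 33.6% were above 0, and 5.24% passed both thresholds as higher and 3.06% as lower, while 33 of the 41 members at or above it (80.5%) were above 0 with a median of 1.35. Loess normalization is meant to remove a trend of ratio with intensity within each array. Under it those 458 probes had a median of −0.60, with 28.6% above 0. All 81 members, the dimmer ones included, had a median of 1.13 there. The 41 brighter members were not read apart under loess, so these 2 medians are not of sets matched in intensity. Across the 75 canonical genes the correlation of mean intensity with mean ratio was 0.14 (Pearson, across genes).

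Genes were also read by their annotated TOP tract. Of the 13 genes with one, 11 had a mean log2 ratio above 0, with a median of 1.02 and a range of −0.81 (Rplp2) to 2.75 (Rps10). Of the 41 without, 38 were above 0 with a median of 1.42. The difference was not tested.

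Other translation genes were read from lists. Rpsa and Fau encode ribosomal proteins that the name rule does not take, and had mean log2 ratios of 1.14 and 1.40, neither past both thresholds. A list of 10 elongation factors and other genes known for TOP mRNAs had 5 with a RefSeq start, and 0 of these had a tract there. Of the 10, 9 were above 0, the median was 1.70, and 3 passed as higher and 0 as lower (of all probes 44.8% were above 0, 2.78% passed as higher and 1.66% as lower). The highest were Eef1a1, which brings aminoacyl-tRNA to the ribosome, with 2.91, 3.46 and 2.23, and Naca, a chaperone at the tunnel exit, with 1.92, 2.30 and 3.53. The lowest were Eef1d (−0.03) and Tpt1 (0.84). Npm1, a nucleolar chaperone, was the other one to pass, with 2.12 ± 0.70.

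The lists for ribosome biogenesis, translation initiation and the mitochondrial ribosome had medians nearer to 0, but each had more genes above 0 than the 44.8% of all probes. Over all probes, 2.78% passed as higher and 1.66% as lower. Of 22 ribosome biogenesis genes, 13 were above 0 with a median of 0.17, and 4 passed as higher and 0 as lower. Their highest means were those of Ebna1bp2 (3.11) and Ncl (2.62), and their lowest those of Bop1 (−0.84) and Bysl (−0.81). Of 14 initiation factors, 8 were above 0 with a median of 0.33, and 1 passed in each direction. Eif2s3x was the highest (3.26 ± 0.97) and passed, followed by Eif1 (1.70). Eif2s1 was the lowest (−1.48), and Eif6, which the array names Itgb4bp, had −1.30 ± 0.80 and passed as lower. Of 75 mitochondrial ribosomal protein genes, 48 were above 0 with a median of 0.31, and 9 passed as higher and 0 as lower, led by Mrpl51 (3.70) and Mrpl24 (2.61). The lowest there were Mrps24 (−1.09) and Mrpl37 (−0.96). No test compared these lists with the cytosolic ribosomal protein genes.

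**Figure D5:**
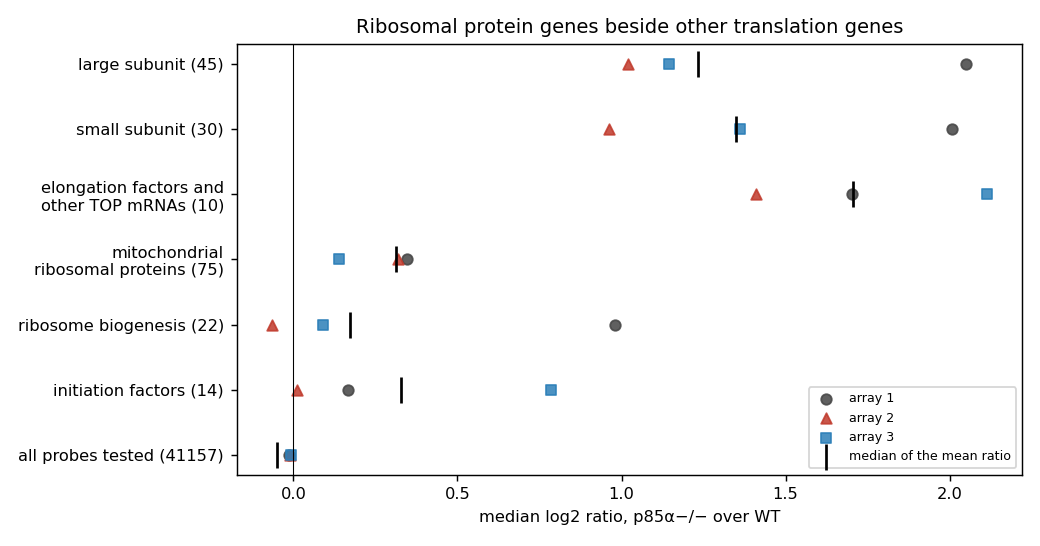
Median log2 ratio of p85α-/- over WT (horizontal axis) of each gene list (vertical axis, with the number of genes or probes). Symbols are the 3 arrays and the black tick is the median of the mean ratios. The subunit lists and the elongation factor list lie right of 0.9 on every array, and the other lists lie closer to 0 except ribosome biogenesis on array 1 (0.98).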

How the data were processed

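The authors deposited 1 scanner file per array from Agilent Feature Extraction (version 9.5.1.1 in the submitters' processing notes), with mean spot and median background intensity values that were not normalized, and processed intensity values. The deposited log10 ratio is red over green. The authors' table of log10 ratios matched the scanner on 40929 of 40929 single-spot probes for array 1 but on 190 and 226 for arrays 2 and 3 (tolerance 1.5e-05). For these arrays 95.5% and 95.4% of the scanner's ratios occur somewhere in the array's own column (95.7% for array 1, after the same rounding to 4 decimals), while the correlation with the scanner on the same probe, across probes, was 0.0027 and 0.0035. The ratios of arrays 2 and 3 therefore stand on other probes, and the table, used as given, is no alternative estimate for a gene. No other per-sample columns were found (0).

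Intensities were background corrected with normexp (offset 50) and quantile normalized over the 6 channels with limma 3.58.1 (R 4.3.3). Spots with an outlier flag and controls were then removed and spots of 1 probe averaged, which left 41157 of 41174 probes. Log2 ratios were fitted with an intercept only (lmFit, eBayes, Benjamini-Hochberg over all probes). The ratio pairs the cultures of 1 array, as numbered in the labels. Simulated log2 ratios with known changes were put through the same fit, at the spread of these arrays and at a smaller spread. The check on adjusted calls was made at the smaller spread only. It therefore does not show what the fit can call in these data. All arrays lay on 1 slide in 1 scan. The number of arrays limits the precision.

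The members, gene lists and tests were chosen with earlier results of these data known. Genes named are the 5 highest and 5 lowest means, the 10 lowest p past both thresholds, a list of genes with known roles, the 5 widest probe gaps and the ends of each list. Rps3a, Rps16, Rpl13, Rpl18 and Npm1 were named after their values were seen. Results for some single genes are not reported here. Alternatives were loess with Aquantile, median centring, no background subtraction, processed signals, the scanner's log ratio, the authors' table, outlier spots kept, dim probes left out, each array left out, no pairing, the mean over probes, canonical genes only and the methods' t-test. Marker lists of basophil, erythroid and B and T cells had median log2 ratios of 0.60, 0.02 and −0.01, and those of mast cells, neutrophils and macrophages 1.21, 1.39 and −0.11.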

Additional observations from a re-analysis of the deposited data

How the results depend on the processing

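No setting gave a member with an adjusted p under 0.05. Between 58 and 79 of 81 members had a mean log2 ratio above 0. The median log2 ratio was 2.35 under median centring, where all probes had a median of 0.09 in place of −0.05, and it ran from 0.81 to 1.29 with 1 array left out. The count past both thresholds was 37 under median centring (6.54% of all probes), 6 by the methods' t-test paired by array (1.99%), and 15 to 34 with 1 array left out (3.78% to 7.69%), the highest without array 2. With no replicate block, that is without the pairing by array, it was 24 (4.4%). Large minus small subunit, taken over mean ratios (−0.12), was −0.31 under loess and ran from −0.43 to −0.074 with 1 array left out.

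Of 33 named genes, the sign turned under median centring for Rplp2 (0.50), Rpl21 (0.39), Rpl29 (0.91), Rps4x (0.80), Rplp1 (0.93) and Rpl22l1 (0.83), and with a gene's probes averaged for Rps4x (0.55), Rpl11 (−0.13) and Rps19 (−0.16). With 1 array left out, Rplp2 ran from −1.77 to 0.22, Rpl29 from −1.24 to 0.25, Rplp0 from −0.87 to 1.70, Rplp1 from −1.63 to 1.17, Rpl5 from −1.02 to 4.36 and Rpl22l1 from −1.05 to 0.38. The cause was not tested. All 33 kept their direction and their side of both thresholds under loess, with no background subtraction, with outlier spots kept and with dim probes left out. With processed signals, and likewise with the scanner's log ratio, 32 did. In each of these settings 1 gene kept its sign but no longer passed.

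The authors' table holds the ratios of arrays 2 and 3 on other probes, so its values for a gene mix probes and say nothing about how that gene depends on processing. As given, it had a median of 0.71, 8 members past both thresholds (3.07% of all probes), and means of −0.28 for Rpl22, −0.28 for Rps6, −0.39 for Rps3, 1.45 for Rpl22l1 and −2.67 for Rps25. Of the 33 named genes, 8 that passed on the scanner's values kept their sign but did not pass there. The sign turned for 5 others, among them Rpl22, which also passed on the scanner's values and did not pass there.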
